A study of Mus musculus with 7 samples.

Results

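Expression of 7 genes of the MHC class II pathway was measured in CD4 T cells sorted from lung tumours: H2-Ab1, H2-Aa, H2-Eb1, Cd74, H2-DMa, H2-DMb1 and Ciita. They were chosen by name as the chains, chaperones and master regulator of class II presentation, and all 7 were found among the 55364 genes of the count table. The tumours were orthotopic lung tumours of C57BL/6 mice more than 8 weeks of age, and cells were sorted by flow cytometry as CD45+CD3+CD4+. Cre mice (genotype I-AbF/FCol1a2-cre, 2 libraries) and Control mice (genotype I-AbF/F, 5 libraries) both carried the loxP-flanked I-Ab allele and both received tamoxifen. In Cre mice the Col1a2 promoter drives the recombinase, so the intended site of deletion was the fibroblast, and the sorted T cells were not targeted. The question was how CD4 T cells differ when fibroblasts of the tumour lack class II. The libraries are called biological replicates matched for age and gender, and the labels do not say whether a library is 1 mouse or a pool.

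MHC class II molecules carry peptides from endosomes to the cell surface, where the T cell receptor of CD4 T cells reads them. Each molecule pairs an alpha with a beta chain, assembles around the invariant chain Cd74, and exchanges the remnant of that chain for peptide with the help of the DM heterodimer. Transcription of all these genes depends on the transactivator Ciita, which acts through factors bound to a shared promoter module. Resting mouse T cells are known for little or no class II synthesis, in contrast to B cells, dendritic cells and macrophages. C57BL/6 mice carry a defective H2-Ea gene, so the H2-Eb1 beta chain has no partner and I-A is their only classical class II molecule.

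The shared promoter module includes the Y box, a reversed CCAAT element bound by the factor NF-Y. The letters TGATTGG, chosen after the promoters had been read, were searched on both strands from 250 bases before to 50 after each start site in RefSeq promoters (GRCm38.p6). They stood in 7.82% of all 32851 promoters. Of 12 class II genes, 8 matched the promoter table by symbol, and 7 of their 9 promoters held the letters; the other genes were H2-Ab1, Cd74, Ciita and H2-Ea. The windows of 4 genes are given because these genes share the element while each had its highest count in a different library. Capitals mark the TGATTGG match, which contains the reversed CCAAT. The windows lie at chr17:34287855-34287884 (minus strand, H2-Aa), chr17:34305795-34305824 (plus, H2-Eb1), chr17:34153117-34153146 (plus, H2-DMb1) and chr17:34238835-34238864 (plus, H2-Ob).
H2-Aa: agagaattttcTGATTGGttctggcgagtt
H2-Eb1: tcctttgatgcTGATTGGctcccagcactg
H2-DMb1: gattcactcagTGATTGGtctgacctgcct
H2-Ob: gtcttcgctctTGATTGGttaacagtgtga
The match begins 50, 61, 63 and 59 bases before the RefSeq start site in these 4 promoters. In GENCODE M21 the H2-DMb1 gene begins at 34153072, so its window lies inside that annotated gene. Neither of the 2 H2-DMa promoters in the table held the letters, which says only that they are absent from those windows.

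H2-Ab1, the beta chain of I-A and the gene carrying the loxP sites, was counted in every library, while each of the other 6 genes was near 0 in most libraries and reached higher counts in 1 or a few. No member differed between Cre and Control in edgeR's quasi-likelihood test. Among 9854 tested genes 0% were called higher in Cre and 0.0101% lower, at a Benjamini-Hochberg adjusted p under 0.05. Of the 7 members, 4 passed the filter on low counts (H2-Ab1, H2-Aa, H2-Eb1 and H2-DMa). Of these, 1 had a fitted fold change above 0, as did 39.9% of tested genes, and 3 had one below. None of the 4 was called, and 0 had an unadjusted p under 0.05, where 1.41% of tested genes lay under it as higher and 10.2% as lower. DESeq2 called 0 members while calling 0.325% of tested genes higher and 6.1% lower. It gave an adjusted p to H2-Ab1 and H2-DMa but none to H2-Aa and H2-Eb1, so neither of the latter could be called. With limma voom 0 members were called.

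Libraries held 1929899 and 1449739 counts in Cre and 1484655 to 1724346 in Control. A count of 0 allows up to 3 counts, or 1.55 to 2.07 CPM per library, where CPM scales a count to the library's total. Over both Cre libraries together the limit was 0.888 CPM. Of the tested genes, 25.01% and 33.6% had no count in Cre replicates 1 and 2, against 1.14% to 16.1% in Control. H2-Ab1 was the only member with a count in all 7 libraries, as 46.5% of tested genes had. Over all tested genes 60.1% had a fitted fold change below 0, and the median log2 fold change was −0.39. It was −0.29 with DESeq2 size factors, a shift of 0.10. The part of these missing genes in the zeros reported for class II genes was not tested.

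H2-Ab1 (ENSMUSG00000073421, chromosome 17, 34257689 to 34269419 on mm10, plus strand) had 87 and 112 counts in Cre and 108, 76, 183, 153 and 110 in Control replicates 1 to 5. Cre replicate 1 was the lowest of the 7 libraries and Cre replicate 2 lay inside the Control range. As levels these were 45.1 CPM (95% exact interval 36.1 to 55.6) and 77.3 CPM (63.6 to 93.0) in Cre, and 51.2 to 113 CPM in Control. The intervals of the 2 Cre libraries did not overlap, so they differed by more than counting error. Means were 61.2 ± 22.8 CPM in Cre (SD, n = 2) and 76.8 ± 24.1 CPM in Control (n = 5). The log2 fold change was −0.33 ± 0.80 (SE; edgeR adjusted p = 0.931), with a 95% interval of −2.07 to 1.41. Relative to the median of all tested genes it was 0.06. The authors' deposited table gives a log2 fold change of −0.22 for H2-Ab1 with an FDR of 0.984.

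Of all H2-Ab1 counts, 99.8% fell in 1 counted region at 34269109 to 34269668, where 311 of 560 bases are annotated 3′ UTR (GENCODE M21) and another 249 follow the annotated end. It shared no bases with regions of other genes, and the annotation has no gene opposite. A 3′ end count in sorted T cells does not check a deletion aimed at fibroblasts. H2-Ab1 also varied little among libraries. Its coefficient of variation over all 7 was 31.9%, against a median of 68.0% among 1045 tested genes of like level (57.9 to 90.4 CPM), of which 2.58% had a lower value.

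**Figure D1:**
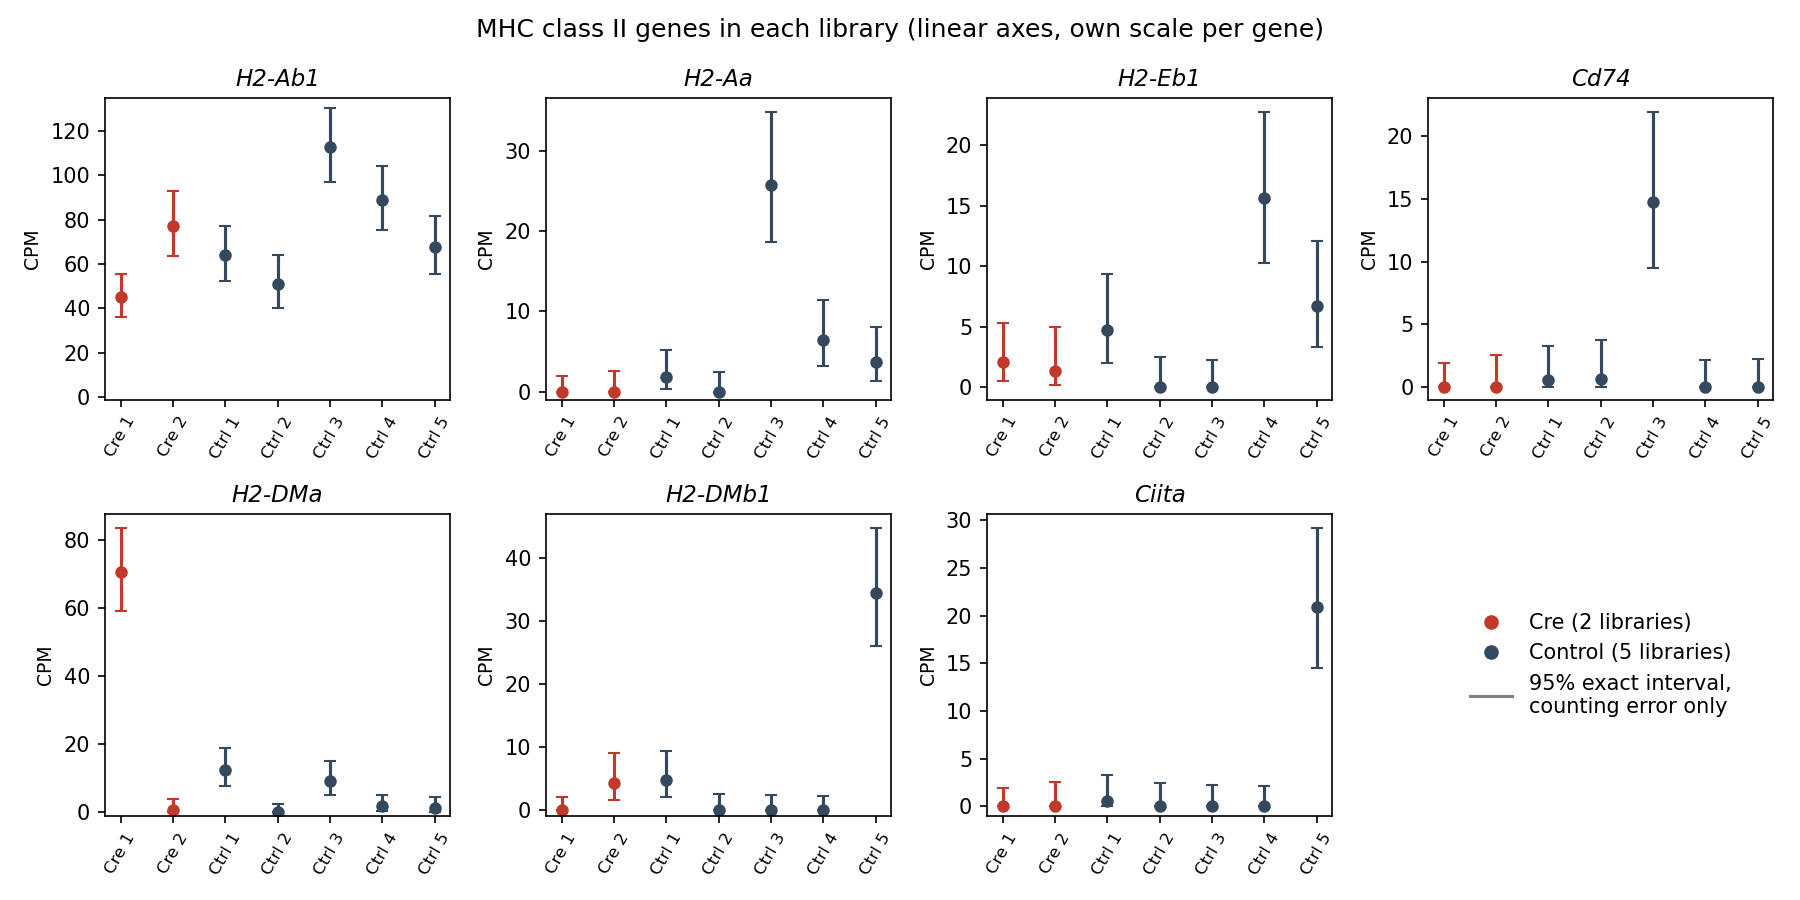
CPM of each member in each library, with its own linear axis per gene, Cre (red) left of Control (dark blue), and bars for the 95% exact interval of counting error. H2-Ab1 stands between 45.1 and 113 CPM in all 7 libraries, while the other genes peak in different libraries.

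H2-Aa (ENSMUSG00000036594, chromosome 17, 34282744 to 34287823, minus strand), the alpha chain that pairs with H2-Ab1, had 0 counts in both Cre libraries. Control libraries held 3, 0, 42, 11 and 6 counts. The groups overlapped at 0, and Control replicate 3 held most of the H2-Aa counts. The Control mean was 7.53 ± 10.5 CPM, which puts Cre at least 8.49-fold lower, with Cre taken at its joint limit of 0.888 CPM. In bulk RNA, fewer cells of a type and less RNA per cell cannot be told apart. Without Control replicate 3 that bound was 3.34. The edgeR log2 fold change of −6.63 ± 3.17 depends on the prior count (adjusted p = 0.429), and the authors' deposited table gives an FDR of 0.255.

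The 2 chains of I-A were set side by side within each library, since a molecule needs both. H2-Aa made up 0% of the counts of both chains in Cre (0 of 87 and 0 of 112, which allow up to 3.45% and 2.68%). In Control replicates 1 to 5 the share was 2.70%, 0%, 18.7%, 6.71% and 5.17%. The exact 95% interval of Control replicate 3 (13.8% to 24.4%) lay above the intervals of all other libraries. H2-Ab1 averaged 100% of the pair in Cre and 93.4% ± 7.18 in Control (SD, n = 5). Per kilobase of each gene's main counted region, H2-Ab1 had mean levels of 109 CPM in Cre and 137 CPM in Control. On the same scale H2-Aa had mean levels of 0 CPM in Cre and 10.5 CPM in Control. In Cre the order below H2-Ab1 was H2-DMa (16.5), H2-DMb1 (3.83) and H2-Eb1 (0.987), with H2-Aa, Cd74 and Ciita at 0. In Control it was H2-Aa (10.5), H2-DMb1 (6.54), H2-Eb1 (5.17), Cd74 (4.34), H2-DMa (2.29) and Ciita (1.48). Apart from the step below H2-Ab1, the libraries of neighbours in both orders overlapped or stood at 0. That scale takes no account of how 3′ ends are captured in each gene. For H2-DMb1 it used the 3′ region alone, which held 50% of the gene's counts.

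**Figure D2:**
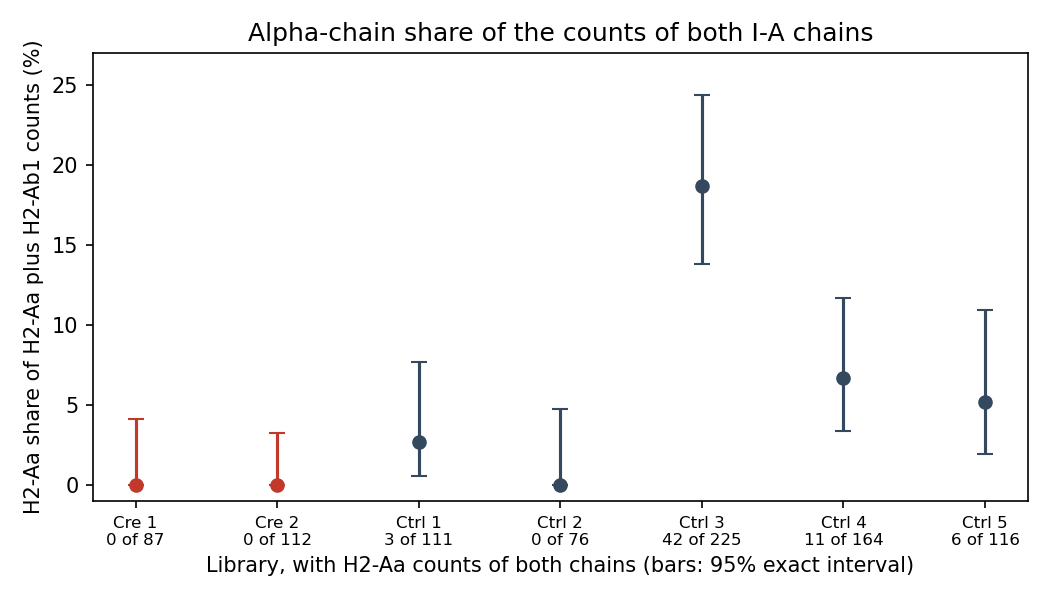
Share of H2-Aa in the counts of H2-Aa plus H2-Ab1 (%), per library, Cre (red) left of Control (dark blue), with 95% exact intervals and the counts under each library. Control replicate 3 stands at 18.7% and every other library at 6.71% or less.

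Across the 7 libraries, H2-Ab1 and H2-Aa had a Pearson r of 0.83 on log2(CPM + 1). Its exact permutation p was 0.0214, or 0.214 after adjustment over 10 relations. Spearman's rho was 0.78 (exact permutation p = 0.0571, adjusted 0.571). Without the 2 libraries farthest from the H2-Ab1 median, Control replicate 3 and Cre replicate 1, r was 0.56 (exact permutation p = 0.30), over a narrower range of H2-Ab1 and 5 libraries. Cd74 had an r of 0.60 with H2-Ab1 and −0.82 without them. H2-Eb1 had an r of 0.06 with H2-Ab1 and 0.75 without them (exact permutation p = 0.15). H2-DMa, H2-DMb1 and Ciita had r between −0.22 and −0.02. None of the 10 relations passed the adjustment, and in counts this sparse a weak correlation is no finding.

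Cd74 (ENSMUSG00000024610, chromosome 18, 60803848 to 60812652), the invariant chain and in antigen-presenting cells one of the most abundant class II transcripts, was nearly absent. It had 0 counts in both Cre libraries and 1, 1, 24, 0 and 0 in Control. Its level in Control replicate 3 was 14.8 CPM (exact 95% interval 9.46 to 22.0), and every other library was at or below 0.674 CPM. In that library H2-Ab1 stood at 113 CPM. A counted region of the microRNA gene Mir5107 overlaps the Cd74 region on the same strand. Cd74 did not pass the filter on low counts and has no fitted fold change in the main test.

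H2-Eb1 (ENSMUSG00000060586, chromosome 17, 34305867 to 34316674), the beta chain of I-E, had 4 and 2 counts in Cre and 8, 0, 0, 27 and 11 in Control. Its highest library was Control replicate 4, where H2-Aa had 11 counts and Cd74 none, and the groups overlapped. Reads shared with its near copy H2-Eb2 could have been placed with either gene. The log2 fold change was −1.61 ± 2.43 (edgeR adjusted p = 0.868). H2-Ea, the partner gene that is defective in this strain, had 0 counts in all 7 libraries.

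The DM genes, which encode the peptide editor, did not follow each other. H2-DMa (ENSMUSG00000037649, chromosome 17, 34119541 to 34139101) had 136 and 1 counts in Cre and 21, 0, 15, 3 and 2 in Control. Cre replicate 1 alone was high, at 70.5 CPM against 0.69 CPM in Cre replicate 2 and at most 12.5 CPM in Control. Its log2 fold change was 2.82 ± 1.95 (edgeR adjusted p = 0.564) and −2.73 without Cre replicate 1, so that library set its direction. H2-DMb1 (ENSMUSG00000079547, chromosome 17, 34153072 to 34160230) had 0 and 6 counts in Cre and 8, 0, 0, 0 and 56 in Control, with Control replicate 5 as its highest library. Summed over libraries, H2-DMb1 counts were split evenly between a region in coding exons and 1 at the 3′ end, with 35 each. Control replicate 5 held 34 of the 35 in coding exons and 22 at the 3′ end, and all 6 of Cre replicate 2 fell at the 3′ end. Reads of the near-identical H2-DMb2 (3 counts in Control replicate 1 and 0 elsewhere) could have been placed with either gene.

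Ciita (ENSMUSG00000022504, chromosome 16, 10480059 to 10528418), the transactivator, had 0 counts in both Cre libraries and 1, 0, 0, 0 and 34 in Control. All counts fell in the region at the 3′ end, and Control replicate 5 held 20.9 CPM (exact 95% interval 14.5 to 29.2). The gene Dexi is annotated on the opposite strand over that region. Whether reads were counted by strand is not given, so some of these counts could be reads of Dexi. That library also held the most H2-DMb1 counts, yet its H2-Ab1 level of 67.6 CPM was the middle value of the 5 Control libraries. In the other 6 libraries H2-Ab1 was at 45.1 to 113 CPM with at most 1 Ciita count each.

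Libraries thus differed in which class II genes they held. More than 3 counts were found for 3 and 2 members in the Cre libraries and for 4, 1, 4, 3 and 5 members in Control replicates 1 to 5. H2-Ab1 made up 38.3% and 92.6% of all member counts in Cre and between 50.2% and 98.7% in Control. The 7 members summed to 118 and 83.5 CPM in Cre, inside the Control range of 51.9 to 162 CPM. Without H2-Ab1 they summed to 72.5 and 6.21 CPM in Cre and 0.674 to 67.0 CPM in Control, where H2-DMa made the high Cre value.

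**Figure D3:**
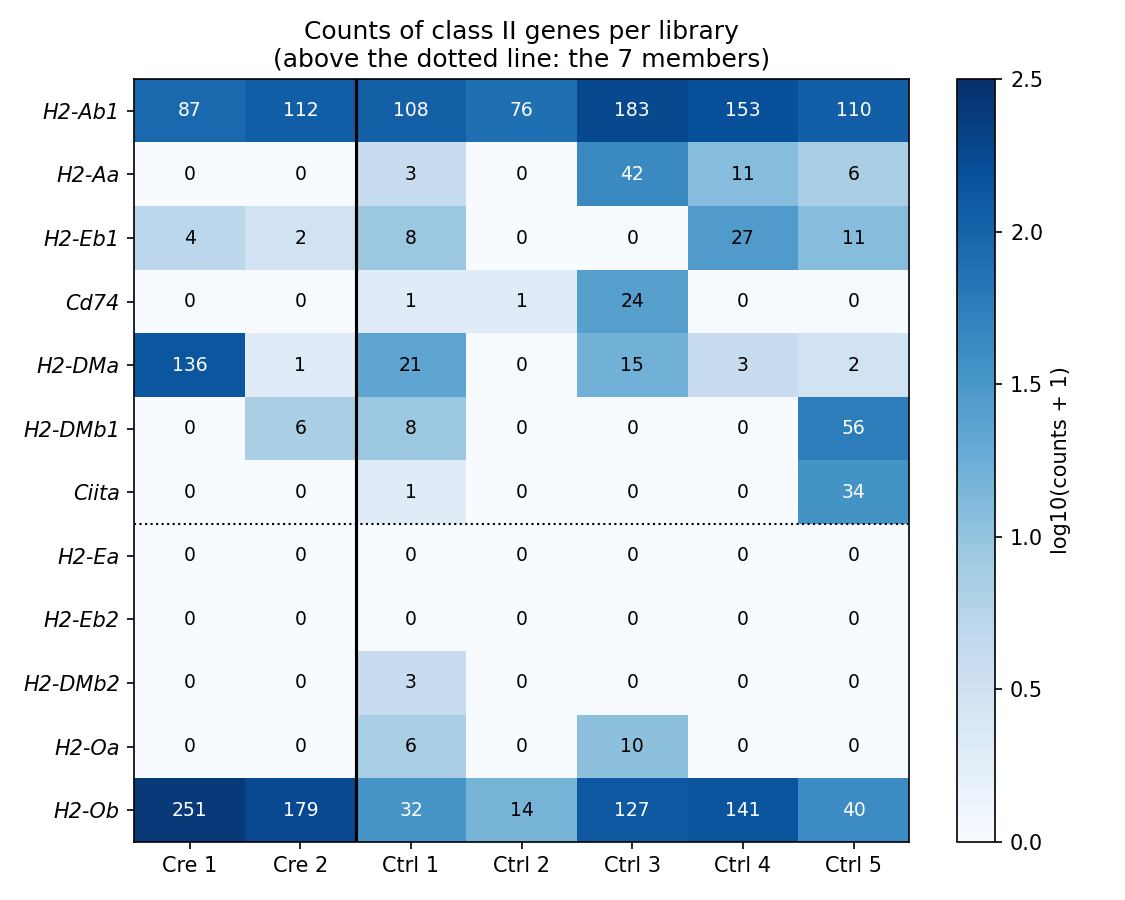
Counts of the 7 members (above the dotted line) and of the 5 other class II genes in each library, Cre left of the black line and Control right of it, shaded by log10(counts + 1). H2-Ab1 and H2-Ob are counted in every library, and most other cells hold 0 to 11 counts.

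Of the other 5 class II genes, H2-Ob alone passed the filter on low counts. It encodes the beta chain of DO, which restrains DM in B cells. H2-Ob had 251 and 179 counts in Cre and 32, 14, 127, 141 and 40 in Control. The Cre values both exceeded the highest Control value, as happened for 4.05% of tested genes. Levels were 127 ± 4.66 CPM in Cre (SD, n = 2) and 42.6 ± 34.6 CPM in Control (n = 5), with a log2 fold change of 1.58 ± 0.94 that did not pass (edgeR adjusted p = 0.472). The counts came from different parts of the gene. In Cre replicate 1, 206 counts fell at 34248597 to 34249558, which includes 713 bases of annotated 3′ UTR, and 45 at 34244122 to 34246155, where 1785 of 2034 bases are annotated exon and none coding or 3′ UTR. All 179 counts of Cre replicate 2 fell in that second region, as did 141 of 141 in Control replicate 4. With the most counted region alone, the log2 fold change was 1.15 and the groups overlapped. There Cre replicate 1, at 11.5 CPM per kilobase, lay inside the Control range of 4.64 to 40.2, and Cre replicate 2 stood at 60.7. H2-Oa, its alpha partner, had 0 counts in both Cre libraries and 6, 0, 10, 0 and 0 in Control, and H2-Eb2 was at 0 in all libraries.

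Genes that act around class II were taken from 3 lists. In the list of transcription partners, 10 of 12 genes were tested and 0 passed edgeR in either direction. An unadjusted p under 0.05 was found for 2, both lower, as for 10.2% of tested genes. For 2 genes both Cre values lay under the lowest Control value, as for 10.9% of tested genes. The list's median log2 fold change was −0.44. Nfyb, a subunit of NF-Y, had 24 and 26 counts in Cre and 161, 183, 297, 122 and 288 in Control, a log2 fold change of −3.08 ± 0.81 (edgeR adjusted p = 0.323). DESeq2 called it lower (adjusted p = 0.00172), as it did 6.1% of tested genes. Ep300, a histone acetyltransferase, had 41 to 121 counts in Control and 0 in both Cre libraries, as had 13.7% of tested genes. With Cre taken at its joint limit of 0.888 CPM, which covers counting error only, it was at least 52.0-fold lower. It was not called by edgeR (adjusted p = 0.292) and was called lower by DESeq2 (adjusted p = 0.000325). Creb1, which binds the X2 box, had 2 and 205 counts in Cre against 118 to 373 in Control, so its low mean rested on Cre replicate 1. In the authors' deposited table Nfyb and Ep300 have FDRs of 0.00047 and 6.11e-05.

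All 12 genes of endosomal processing were tested and 0 passed edgeR, with 0 at an unadjusted p under 0.05 in either direction and a median log2 fold change of −0.15. Ctss, the cathepsin that trims the invariant chain, had 794 and 454 counts in Cre and 283, 243, 536, 319 and 231 in Control. Its means were 362 ± 69.5 CPM in Cre and 198 ± 75.4 CPM in Control (log2 fold change 0.89 ± 0.44, edgeR adjusted p = 0.429), and Control replicate 3 at 329.6 CPM lay between the Cre libraries. Cathepsin L (Ctsl) had 1 and 0 counts in Cre and 3, 48, 0, 16 and 84 in Control. Lgmn, an asparagine endopeptidase, had 5.96 ± 5.50 CPM in Cre and 39.4 ± 41.9 CPM in Control. The signal peptide peptidase H13 had 93.8 ± 2.91 and 165 ± 52.2 CPM in those groups. None of these 3 passed (edgeR adjusted p = 0.430 to 0.566).

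Of 10 genes for turnover and binding partners, 5 were tested and 0 passed edgeR. An unadjusted p under 0.05 was found for 1, as lower, where 10.2% of tested genes lay. The median log2 fold change was 0.37. Cd44, a signalling partner of Cd74, had 26 and 0 counts in Cre and 129 to 255 in Control (log2 fold change −3.99 ± 1.34, edgeR adjusted p = 0.380). Both Cre values lay under the lowest Control value, as for 10.9% of tested genes. DESeq2 called Cd44 lower (adjusted p = 0.0053), as it did 6.1% of tested genes, and the authors' deposited table gives an FDR of 0.0159. Mif, a ligand of Cd74, had 497 and 120 counts in Cre and 124, 69, 167, 20 and 124 in Control, so the groups overlapped. Cd4, the coreceptor that binds class II, stood at 385 ± 8.72 CPM in Cre and 300 ± 104 CPM in Control. Cd9 stood at 85.4 ± 16.7 CPM in Cre and 55.3 ± 27.7 CPM in Control. Lag3, an inhibitory receptor for class II, and Marchf1, which ubiquitinates class II chains, had 0 counts in all 7 libraries.

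**Figure D4:**
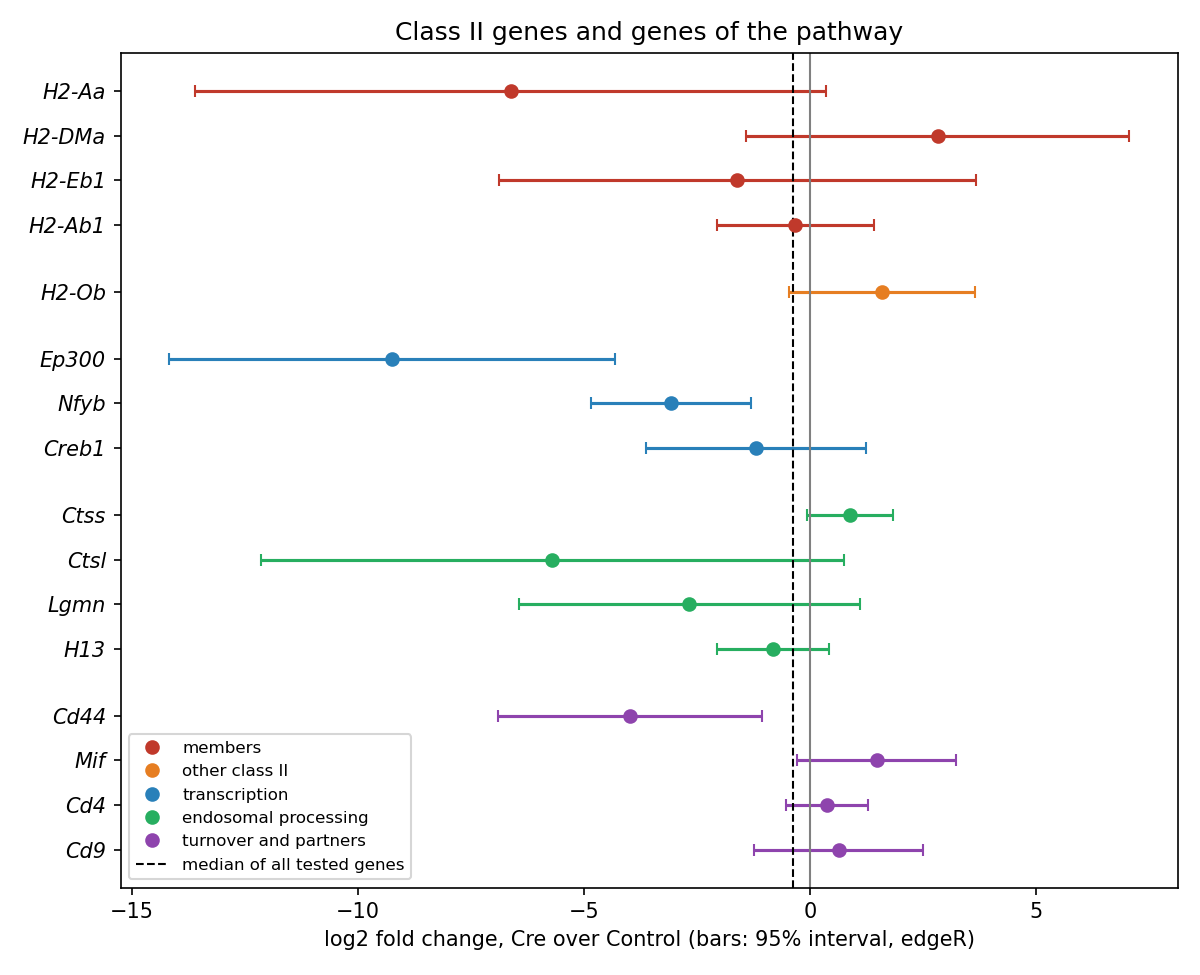
Log2 fold change, Cre over Control, with 95% intervals from edgeR for the tested class II genes and the named genes of the pathway, coloured by list. The dashed line is the median of all tested genes at −0.39; the H2-Ab1 interval runs from −2.07 to 1.41 and H2-Aa, with 0 counts in Cre, has the widest interval, −13.6 to 0.35.

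Markers of the cells that could carry class II RNA into the sort were summed. Of the 14 macrophage and monocyte markers, 10 had no count in either Cre library, and 3 of these had none in any library. Only 3 markers passed the filter, and 1 of these had no count in either Cre library, as had 13.7% of tested genes. For 1 of the 3 both Cre values lay under the lowest Control value, as for 10.9% of tested genes. The list was also sparse in Control, with 0 and 1 markers above 3 counts in Cre and 5, 2, 3, 2 and 3 in Control. It summed to 1.04 and 5.52 CPM in Cre, below the 13.9 to 48.0 CPM of Control. Lyz2, a lysozyme of myeloid cells, had 0 counts in both Cre libraries and 8 to 54 in Control, and Adgre1, C1qc and Ms4a7 were at 0 in all 7 libraries. Of the 12 dendritic cell markers, 7 had no count in any library, Flt3, Clec9a, Cd209a and Batf3 among them, and the sums were 7.77 and 0 CPM in Cre and 0 to 11.9 CPM in Control. B cell markers summed to 102 and 44.1 CPM in Cre and 42.3 to 354 CPM in Control, mostly from the immunoglobulin genes Ighm and Igkc. Ighm was counted in all 7 libraries, at 94.8 and 40.7 CPM in Cre and 18.6 to 353 CPM in Control. Igkc reached 23.8 CPM in Control replicate 4. Without Ighm and Igkc the 10 others summed to 4.66 and 3.45 CPM in Cre and 0 to 11.9 CPM in Control, with Ms4a1, Pax5 and Blnk at 0 throughout.

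The part of these cells in the H2-Ab1 counts was not tested. With H2-Ab1, the marker sums had r of −0.11 (B cell), −0.44 (dendritic cell), 0.43 (macrophage and monocyte) and 0.03 (fibroblast), and none passed (exact permutation p = 0.302 to 0.974, two-sided). H2-Aa had 0 counts in both Cre libraries, where the macrophage list was lowest. It had its highest count, 42, in Control replicate 3, where that list was highest at 48.0 CPM. In Control replicate 2 H2-Aa also had 0 counts, while the list summed to 47.8 CPM. The part of those cells in the H2-Aa counts was not tested.

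Fibroblast markers summed to 346 and 60.7 CPM in Cre and 220 to 828 CPM in Control, with 2 of 10 markers, Pdgfrb and Col6a1, at 0 in all libraries. Of the 7 that were tested, 0 were called by edgeR and 2 had an unadjusted p under 0.05, both lower, as 10.2% of tested genes had. For 3 of them (Col1a1, Col1a2 and Bgn) both Cre values lay under the lowest Control value, as for 10.9% of tested genes. Col1a2, the gene whose promoter drives the recombinase, had 7 and 2 counts in Cre and 179, 50, 242, 40 and 336 in Control (log2 fold change −5.28 ± 1.36, edgeR adjusted p = 0.323). Dcn alone gave 189 CPM of the sum in Cre replicate 1. Epithelial markers summed to 58.0 and 1.38 CPM in Cre and 0.614 to 25.2 CPM in Control, endothelial markers to 66.8 and 6.21 CPM against 22.0 to 68.7 CPM, and CD8, NK and gamma-delta markers to 67.9 and 72.4 CPM against 0.614 to 105 CPM. Of the sorted cell type, the 12 CD4 T cell markers summed to 6716 and 5153 CPM in Cre and 5358 to 7217 CPM in Control. All 12 had more than 3 counts in every library except Cre replicate 2, where 11 did. There Cd3e had 3 counts (2.07 CPM), against 60.1 CPM in Cre replicate 1 and 34.4 to 235 CPM in Control.

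**Figure D5:**
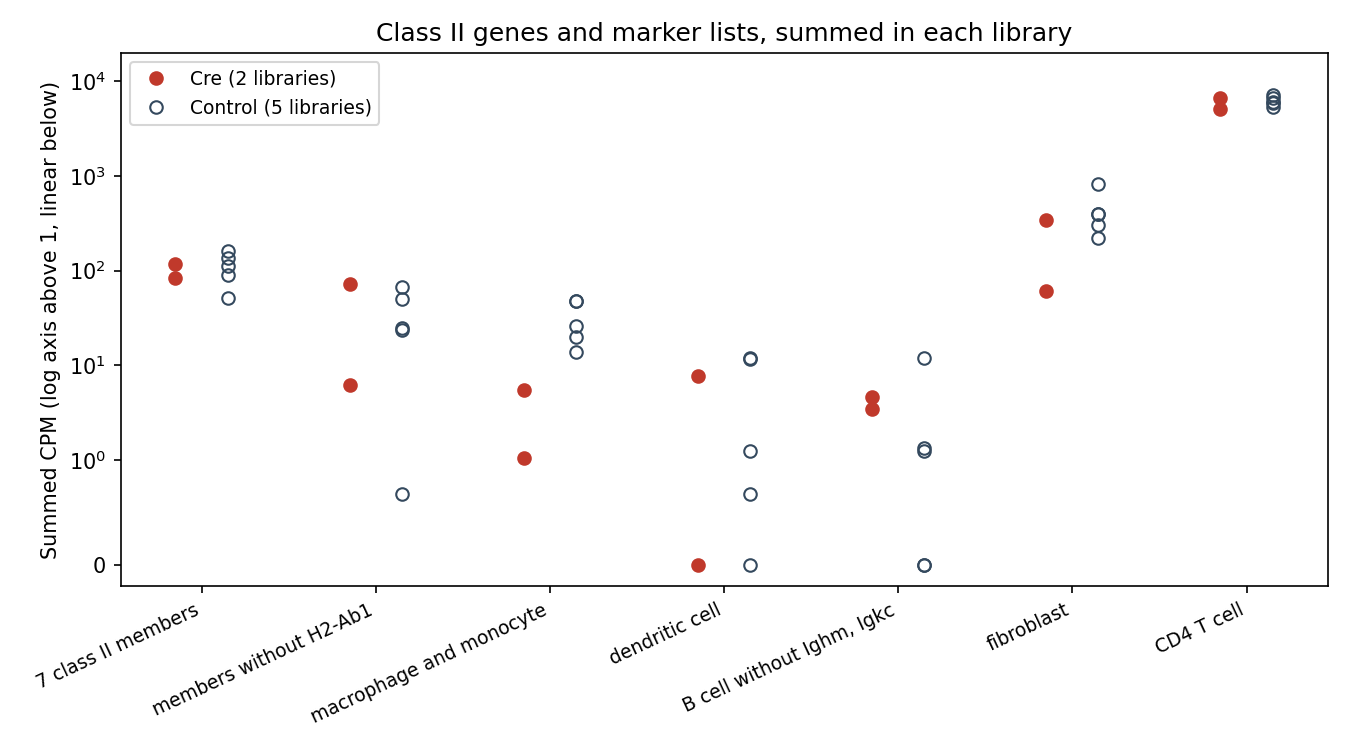
Summed CPM per library of the class II members and of marker lists, Cre (filled) left of Control (open), on an axis that is logarithmic above 1 and linear below. The 7 members overlap between groups, and the macrophage and monocyte list at 1.04 and 5.52 CPM in Cre lies below all 5 Control libraries.

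The genes most like H2-Ab1 across the 7 libraries were taken as the 5 highest Pearson r on log2(CPM + 1) among 5014 tested genes with a mean of at least 30 CPM. They were Rhoh (r = 0.97), AI467606 (0.96), Taz (0.95), Nxpe3 (0.94) and Ppp3ca (0.94). High values arise in a search over so many genes with 7 libraries, and they are given as a description. Rhoh had 86.0 and 194 CPM in Cre and 125, 88.9, 244, 186 and 145 CPM in Control, with its highest library, Control replicate 3, and its lowest, Cre replicate 1, the same as those of H2-Ab1.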

How the data were processed

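Transcripts of sorted intratumoral CD4 T cells were counted at their 3′ ends in 2 Cre and 5 Control libraries, grouped by title. The authors deposited whole-number counts per 3′ region for 116000 regions, per the file headers, and a comparison of Cre with Control whose p-values and FDR come from DESeq2. In that deposited table the fold is a ratio of normalized values, also given as a log2 fold change. Per the labels' protocols, RNA came from a NucleoSpin column and libraries from the NEB Next Ultra RNA kit. Per the submitters' processing notes, the build was mm10, and HISAT2 2.1.0, DESeq2 and FastQC 0.11.8 were used. How reads were counted, and whether by strand, is not given in the sources used here, so reads of overlapping genes on opposite strands may not be told apart.

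Counts were summed over the regions of a gene. The test was edgeR 4.0.16 (R 4.3.3) with glmQLFit and glmQLFTest, TMM, robust dispersion, group as the only term and filterByExpr. Its limits were 10 for the count and 15 for the total, and 9854 genes remained. Two-sided p-values were adjusted (Benjamini-Hochberg) across them, with a threshold of 0.05. CPM used library totals. Intervals are exact (Clopper-Pearson, 95%) and, like the limit of 3 counts, cover counting error only, since reads are not independent molecules. Correlations were tested by exact permutation in SciPy 1.17.1. Every pair of libraries differed by more than sampling noise (chi-square per degree of freedom at least 30.2). The fit was tested on simulated data.

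The members and lists were chosen with earlier results of these data known. Named genes were the members and, per list, the 4 of smallest p plus genes at 0 in both Cre libraries and present in all Control libraries, then the 5 genes most like H2-Ab1. A gene that this rule selects is not reported here. Markers, zeros, Lag3, Marchf1, H2-Oa and H2-Eb2 were named beyond that after their values were seen. The 13 lists held 128 different genes, among them 5 other class II genes, 12 transcription partners, 12 processing genes, 10 turnover and partner genes and 8 marker lists. The alternatives were DESeq2 size factors, no filter, a filter of 10 counts in 5 libraries, DESeq2 1.42.0, limma voom (3.58.1), the replicate number as a block, the most counted region of each gene, each library left out, TMM-scaled totals or no Cd74 for the sum, and linear CPM or 2 fewer libraries for correlations. P-values of the fits set the difference between groups against the spread between these libraries, and those of the correlations come from permuted pairings.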

Additional observations from a re-analysis of the deposited data

Results flagged for a closer look

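In 7 of 34 sets of 5 Control values, 1 library lay far from the other 4, by Dixon's test at its 95% critical value of 0.71. Chance gives this in about 1 set of 20 for independent normal values, which sparse counts and sums sharing genes need not follow. Control replicate 3 stood apart for H2-Aa (25.8 CPM, others 0 to 6.38 CPM), Cd74 (14.8 CPM, others 0 to 0.674 CPM) and Ctss (329.6 CPM, others 142 to 185 CPM). The same library stood apart for the summed endosomal processing genes (1609 CPM, others 1028 to 1178 CPM) and for the turnover and partner genes (785 CPM, others 556 to 609 CPM). Control replicate 5 stood apart for H2-DMb1 (34.4 CPM, others 0 to 4.75 CPM) and Ciita (20.9 CPM, others 0 to 0.593 CPM).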

How the results depend on the processing

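No member was called under any alternative, but not every member could be tested in each. DESeq2 gave no adjusted p for H2-Aa and H2-Eb1, and the filter of 10 counts in 5 libraries kept only H2-Ab1. H2-Aa did not pass the filter without Control replicate 3 or 4, nor H2-Eb1 without Control replicate 4 or 5. Counts of called genes over all genes moved. Genes higher in Cre numbered 15 with no filter, 32 with DESeq2, 3 with voom and 0 to 17 with 1 library left out, against 0 in the main test. Genes lower in Cre numbered 28, 601 and 0 under those 3 settings, 5 with the replicate block and 1 to 202 with 1 library left out, against 1. The replicate numbers share no stated mouse, and same-numbered libraries did not deviate together (correlations 0.003 and 0.002). Leaving out 1 Cre library assumes that the other varies like Control. The log2 fold change of H2-Ab1 turned to 0.0011 with the replicate block and ran from −0.72 to 0.0235 with 1 library left out, turning without Cre replicate 1. H2-Eb1 turned to 0.54 with the block, and H2-DMa ran from −2.73 to 3.83 with 1 library left out. Without Control replicate 3 and Cre replicate 1, the correlations of H2-Ab1 turned to −0.82 (Cd74), 0.16 (H2-DMa), 0.0162 (H2-DMb1), −0.80 (macrophage and monocyte markers) and −0.0488 (fibroblast markers). The cause of these changes was not tested. Without Cre replicate 1 the log2 fold change of Cd44 was −10.48. It then rests on Cre replicate 2 alone, with 0 counts, and depends on the prior count. The log2 ratio of means of the class II sum was −0.13, and −0.40 to 0.10 with 1 library left out, turning without Cre replicate 2 (0.096) and without Control replicate 3 (0.052). The H2-Ab1 share of both chains was 6.65 percentage points higher in Cre (3.65 to 8.31 with 1 library left out), where H2-Aa at 0 in Cre fixes the sign. With 2 Cre libraries and so few counts for most members, differences as large as the printed intervals allow could have gone uncalled.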
